A study of Mus musculus with 24 samples.

Results

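The genes described here are 10 genes of the Atf4 pathway, the transcriptional response of cells to a shortage of amino acids: Chac1, Atf4, Atf5, Ddit3, Trib3, Asns, Psat1, Sesn2, Gdf15 and Ppp1r15a. Chac1 was put first because it rose most in unloaded Nfkb1-/- muscle, so its values in that comparison chose it and are given without a test. Probe sets were listed for 9 of the 10 genes, 15 probe sets in all of the 22690 on the arrays, and Gdf15, a secreted factor, was not analysed here. RNA of gastrocnemius and plantaris muscles, which are calf muscles made mostly of fast fibers, came from 24 male mice obtained at 6 weeks of age, with 1 Affymetrix mouse array per mouse and 4 mice in each of 6 groups. Nfkb1-/- mice (strain B6;129P2-Nfkb1tm1Bal/J) lack the NF-κB subunit p50 in every tissue, Bcl3-/- mice (strain FVB;129P2-Bcl3tm1Ver/J) lack its partner protein Bcl-3 in every tissue, and wild type mice were of strain B6129PF2/J. Within each genotype 4 mice were hind limb unloaded for 6 days (HU), a model of muscle disuse in which the hind limbs bear no weight, and 4 stayed weight bearing (WB). Each genotype had its own strain background, so genotype and strain cannot be told apart. Neither deletion could be checked, because no probe set was listed for Nfkb1 and because the Bcl3-/- arrays lay on another scale than the rest.

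When amino acids run short, or when misfolded proteins, heme shortage or viral RNA are sensed, kinases phosphorylate the initiation factor eIF2. General translation then slows while the mRNA of Atf4, a bZIP transcription factor, is translated more, so that Atf4 protein can rise with little change of its mRNA. Atf4 switches on enzymes of amino acid synthesis, amino acid transporters, tRNA synthetases and the regulators Ddit3, Trib3 and Ppp1r15a, and the last of these brings the phosphatase that removes the phosphate from eIF2. In skeletal muscle the pathway is known from fasting, mitochondrial disease and disuse, and Atf4 has been tied to loss of muscle mass.

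Values are RMA intensities on a linear scale. The 16 Nfkb1-/- and wild type arrays had medians of 11.6 to 11.9 and the 8 Bcl3-/- arrays medians of 81.1 to 86.8, so levels are compared within a genotype or between Nfkb1-/- and wild type muscle, never between Bcl3-/- muscle and the others. Arrays of 1 group correlated at 0.978 to 0.997. A probe set was tested if its intensity exceeded 20 on at least 4 of the 24 arrays, which left 19294 probe sets and all 15 of the members' probe sets. On the Nfkb1-/- and wild type arrays, however, the main probe sets of Trib3, Asns, Psat1 and Sesn2 exceeded 20 on fewer than 4 of 16 arrays, and these 4 genes passed because of the Bcl3-/- arrays. The same cutoff, at least 4 arrays above 20, kept 19285 probe sets on the Bcl3-/- arrays alone and 9722 on the others. All 12 skeletal muscle markers had a median above 20 in every group. Because these are whole muscles, fewer cells of a type and less RNA per cell cannot be told apart.

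Few members passed the test. Upward changes were 8 of 8 in Nfkb1-/- muscle, 4 of 9 in Bcl3-/- muscle and 7 of 9 in wild type muscle. A difference between genotypes in this share was not tested, and the share over all probe sets is not given here. The counts include the 4 genes that were dim on the Nfkb1-/- and wild type arrays. Most of the upward changes were small and not called. In HU against WB muscle Chac1 was called higher in Bcl3-/- muscle, and its rise in Nfkb1-/- muscle, which chose it, was not tested. Ppp1r15a rose in Nfkb1-/- and wild type muscle, and Psat1 rose at 1 of its 2 probe sets in Bcl3-/- muscle. No other member passed the test in any genotype. Calls are at an adjusted p under 0.05 in limma over all 19294 probe sets, with 1 probe set per gene, the one with the highest mean. In Nfkb1-/- muscle 1 of 8 tested members was called higher and 0 lower, where 4.79% of all probe sets were called higher and 6.59% lower. Among Bcl3-/- changes 1 of 9 was called higher and 0 lower, where 7.59% of all were called higher and 2.81% lower (10.4% in all). Among wild type changes 1 of 9 was called higher and 0 lower, where 2.31% of all were called higher and 1.66% lower. The median change of these members was 0.21 on the log2 scale in Nfkb1-/- muscle, −0.06 in Bcl3-/- muscle and 0.07 in wild type muscle, and the median over all probe sets was 0.00, 0.02 and −0.01 in the same order. With the 4 dim genes left out, over the members that exceeded 20 on at least 4 of the 16 Nfkb1-/- and wild type arrays the medians were 0.28 in Nfkb1-/- muscle (4 genes), −0.06 in Bcl3-/- muscle (5 genes) and 0.66 in wild type muscle (5 genes). Upward changes numbered 4 of 4, 2 of 5 and 5 of 5 in the same order. Chac1 is left out in Nfkb1-/- muscle and counted in the other genotypes, so the medians do not cover the same genes. The wild type median of 0.66 is the value of Ddit3.

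**Figure D1:**
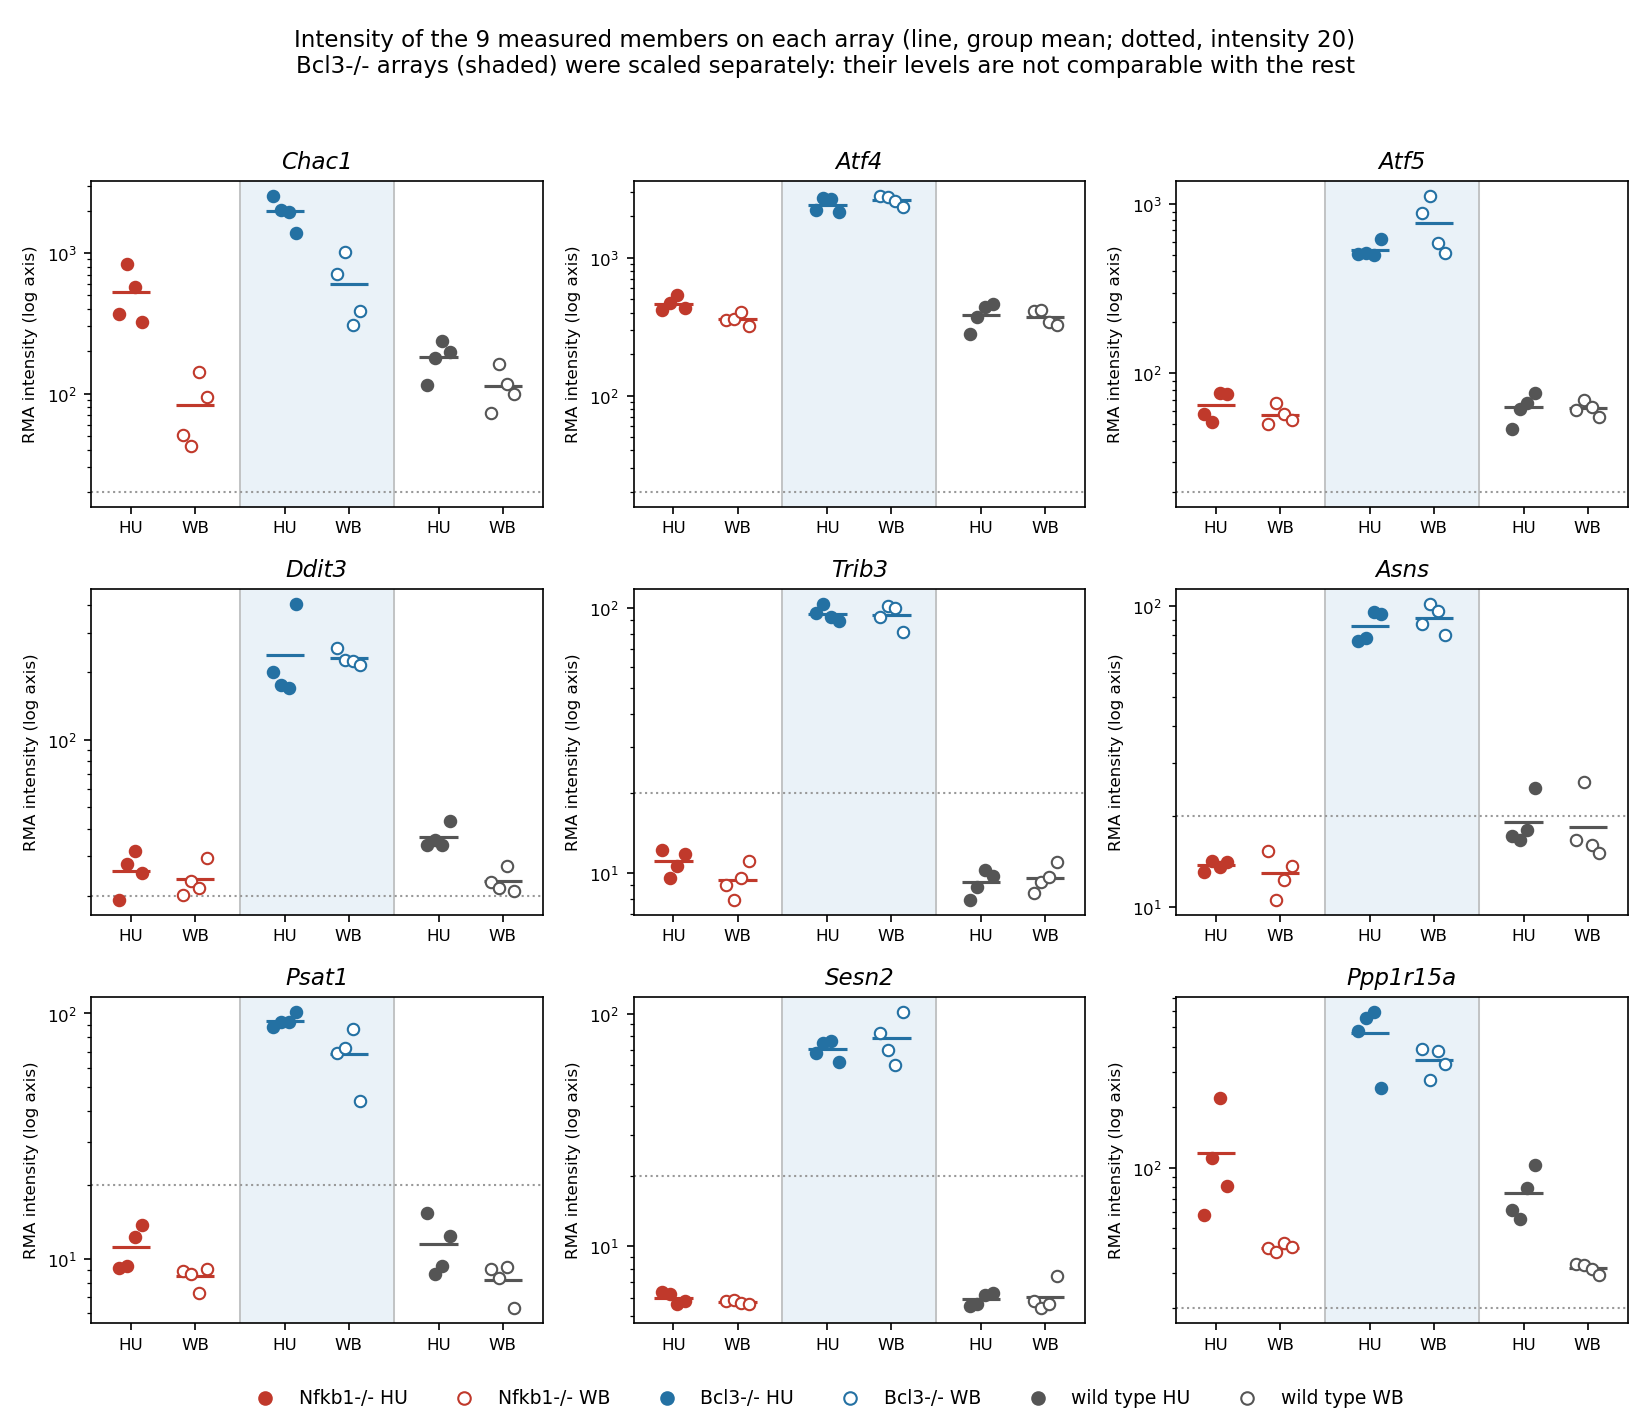
RMA intensity (log axis) of the main probe set of each of the 9 measured members on 24 arrays, HU filled and WB open, with a line at each group mean and a dotted line at an intensity of 20; the Bcl3-/- arrays (shaded) are on a scale of their own. Chac1 shows no overlap of HU and WB arrays in either knockout, and Trib3, Psat1 and Sesn2 stay below 20 on the Nfkb1-/- and wild type arrays.

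Chac1 encodes a gamma-glutamylcyclotransferase that breaks down glutathione in the cytosol and is switched on by Atf4 and its partners. In Nfkb1-/- muscle its intensity was 366, 840.5, 576 and 325 on the HU arrays, against 50.5, 42.6, 142.9 and 93.9 on the WB arrays. The lowest HU array thus lay above the highest WB array, and WB replicate 3 was the highest of its group. The means were 527 ± 236 in HU and 82.5 ± 46.2 in WB muscle (SD, n = 4 each), a difference of 2.74 on the log2 scale (SE 0.38), rank 1 of 19294 probe sets by the rule that chose it. The next in rank were Fbxo32 at 2.36, an atrophy-linked ubiquitin ligase, Tmem100 at 2.34, Lcn2 at 2.31, an iron-binding secreted protein of inflammation, and Inmt at 2.22, a methyltransferase. The paper lists this Fbxo32 probe set as a target of p50 and Bcl-3, raised by unloading in wild type muscle only. Its qPCR found no rise or a smaller rise in the knockouts, and it reports increased Bcl-3 binding at this gene. Here Fbxo32 differed by 2.36 in Nfkb1-/-, 1.02 in Bcl3-/- and 1.06 in wild type muscle. The reason for the difference from the paper was not tested.

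Bcl3-/- muscle was not used to choose Chac1. There its intensity was 2545, 2018, 1945 and 1392 on the HU arrays, against 708.9, 1017.9, 306.5 and 385.7 on the WB arrays, again without overlap. Chac1 rose by 1.84 on the log2 scale in HU Bcl3-/- muscle (SE 0.38, 95% interval 1.05 to 2.62, adjusted p = 0.0037, limma), and ranked 7 of 19294 probe sets. The call was kept with each array left out in turn, and it was lost by the methods' t-test (Benjamini-Hochberg adjusted p = 0.17), which estimates the spread of each probe set from its own 8 arrays. After the methods' own filter that test gave a q-value of 0.053.

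Chac1 in wild type muscle had intensities of 114.3, 178.7, 235.7 and 196.2 on the HU arrays, against 72.8, 163.4, 117.6 and 100.1 on the WB arrays. The groups overlapped, since HU replicate 1 lay below WB replicates 2 and 3. The difference was 0.69 (SE 0.38, 95% interval −0.09 to 1.47) and did not pass the test (adjusted p = 0.36, limma). The response of Bcl3-/- muscle minus that of wild type muscle was 1.15 (SE 0.54, 95% interval 0.04 to 2.26), which was not called after adjustment over all probe sets (adjusted p = 0.35, limma). The response of Nfkb1-/- muscle minus that of wild type muscle was 2.05 (SE 0.54), a value that follows from the choice of the gene. Both differences use the same wild type arrays. In WB muscle Chac1 averaged 82.5 ± 46.2 in Nfkb1-/- and 113 ± 38.1 in wild type mice (SD, n = 4 each), with overlapping arrays.

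The promoters of Chac1, Asns and Trib3 are printed because each holds the letters TGATGNAA, the core of the C/EBP-ATF response element through which Atf4 and C/EBP proteins bind together. The windows run from 250 bases before to 50 after the RefSeq start of each gene (build GRCm38.p6), and capitals mark the match, which in Chac1 and Trib3 is on the opposite strand. The Chac1 sequence is chr2:119350992-119351241 (+ strand), just upstream of a gene at 119351242 to 119354326 on chromosome 2. The Asns sequence is chr6:7693210-7693459 (− strand), and that of Trib3, chr2:152344028-152344057 (− strand), lies within the first transcribed bases.
Chac1: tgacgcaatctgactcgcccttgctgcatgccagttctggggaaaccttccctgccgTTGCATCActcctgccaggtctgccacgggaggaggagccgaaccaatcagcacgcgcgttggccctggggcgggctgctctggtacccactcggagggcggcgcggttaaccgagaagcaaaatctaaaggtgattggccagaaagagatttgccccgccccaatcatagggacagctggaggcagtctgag
Asns: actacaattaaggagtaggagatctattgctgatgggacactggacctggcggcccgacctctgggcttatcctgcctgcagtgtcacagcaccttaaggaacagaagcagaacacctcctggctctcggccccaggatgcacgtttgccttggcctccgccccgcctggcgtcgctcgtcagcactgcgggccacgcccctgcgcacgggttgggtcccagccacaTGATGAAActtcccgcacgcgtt
Trib3: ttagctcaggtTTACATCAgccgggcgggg
The match lies 193 to 186 bases before the start in Chac1, 23 to 16 before it in Asns and 15 to 22 after it in Trib3. Of the 10 members, all with a promoter window in RefSeq, these 3 held the letters on either strand, and 1304 of 32851 windows (3.97%) did. No member's window held the κB consensus of NF-κB, which 4.51% of all windows held. Asns and Trib3 differed by −0.09 and 0.03 in Bcl3-/- muscle, and neither was called. Their median intensities on the 8 Bcl3-/- arrays were 90.3 and 94.3, where the array medians were 81.1 to 86.8.

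Ppp1r15a encodes GADD34, the subunit that directs protein phosphatase 1 to eIF2 and so closes the pathway's feedback loop. In Nfkb1-/- muscle it had intensities of 58.2, 112.3, 221.4 and 80.6 on the HU arrays, against 39.9, 37.9, 42.2 and 40.2 on the WB arrays. All HU arrays were above all WB arrays, and the HU arrays spread widely, with replicate 3 the highest. It rose by 1.38 on the log2 scale (SE 0.28, 95% interval 0.79 to 1.96, adjusted p = 0.0025, limma), rank 27 of 19294. The wild type intensities were 61.6, 55.5, 79.6 and 102.6 on the HU arrays, against 33.1, 32.7, 31.3 and 29.4 on the WB arrays, also without overlap. It rose by 1.20 there (SE 0.28, 95% interval 0.62 to 1.79, adjusted p = 0.016, limma), also rank 27. The wild type call was lost without HU replicate 3 (adjusted p = 0.051) or HU replicate 4 (adjusted p = 0.069) and with log2 of the intensity plus 16 (adjusted p = 0.068). Over all 19294 probe sets the methods' t-test called Ppp1r15a in neither genotype (Benjamini-Hochberg adjusted p = 0.22 in Nfkb1-/- and 0.26 in wild type muscle), and after the methods' own filter it called it in both (q-values of 0.023 and 0.034).

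The response of Ppp1r15a in Nfkb1-/- muscle minus that in wild type muscle was 0.17 (SE 0.40, 95% interval −0.65 to 1.00, adjusted p = 0.91, limma). In Bcl3-/- muscle its intensities were 477, 557, 593 and 250 on the HU arrays, against 389, 272, 379 and 327 on the WB arrays. HU replicates 1 to 3 were above every WB array and HU replicate 4 was below them all. The difference was 0.40 (SE 0.28, 95% interval −0.19 to 0.98, adjusted p = 0.40), and the response minus that of wild type muscle was −0.81 (SE 0.40, 95% interval −1.63 to 0.02, adjusted p = 0.38, limma). In WB muscle every Nfkb1-/- array of Ppp1r15a was above every wild type array, which held for 3.33% of all probe sets. That difference was 0.34 on the log2 scale and did not pass the test (SE 0.28, adjusted p = 0.90, limma).

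The 250 bases upstream of Ppp1r15a are printed because the gene rose in Nfkb1-/- and wild type muscle and because they hold TGACGTCA (capitals), the palindromic letters that CREB and ATF proteins bind, a motif searched after the sequences had been read. They lie at chr7:45526269-45526518 (− strand, GRCm38.p6).
Ppp1r15a: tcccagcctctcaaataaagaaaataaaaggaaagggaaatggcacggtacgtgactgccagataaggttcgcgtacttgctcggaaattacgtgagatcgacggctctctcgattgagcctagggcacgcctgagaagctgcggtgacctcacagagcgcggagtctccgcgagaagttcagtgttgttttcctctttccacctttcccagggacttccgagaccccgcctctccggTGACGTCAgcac
The match lies 12 to 5 bases before the start. Of all 32851 windows 1.79% held these letters on either strand, and no other member's window did.

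Atf4 itself was bright. Its main probe set (1448135_at) had intensities of 415, 468, 535 and 431 on the HU arrays of Nfkb1-/- muscle, against 351, 359, 403 and 320 on the WB arrays. All HU arrays were above all WB arrays by a small margin, and the difference of 0.37 (SE 0.13, 95% interval 0.09 to 0.64) did not pass the test (adjusted p = 0.078, limma). It was called in a fit of the Nfkb1-/- groups alone (adjusted p = 0.043), with array weights (0.012), after quantile normalization within each array set (0.046) and without wild type HU replicate 1 (0.036). The other probe sets of Atf4, 1438992_x_at and 1439258_at, differed by 0.12 and 0.08 there. In wild type muscle they differed by 0.37 (95% interval 0.02 to 0.71, adjusted p = 0.24) and −0.11, and in Bcl3-/- muscle by −0.01 and 0.15. Changes of the main probe set were −0.11 in Bcl3-/- muscle (95% interval −0.39 to 0.16) and 0.04 in wild type muscle (95% interval −0.24 to 0.31).

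Atf5, a related bZIP factor, is likewise controlled at translation. It differed by 0.19 in Nfkb1-/- muscle, −0.48 in Bcl3-/- muscle (95% interval −0.86 to −0.09, adjusted p = 0.11, limma) and 0.00 in wild type muscle. In Bcl3-/- muscle the HU arrays read 506, 512, 499 and 623, against 885, 1116, 592 and 515 on the WB arrays. The groups overlapped, and WB replicates 1 and 2 were the highest. Atf5 was called lower there with array weights (adjusted p = 0.050) and without WB replicate 4 (adjusted p = 0.028).

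Ddit3 encodes CHOP, a bZIP factor of prolonged stress. The study's own list of genes chosen on these arrays holds it, so its wild type direction is not independent evidence. In wild type muscle its intensities were 33.9, 35.7, 33.8 and 43.1 on the HU arrays, against 23.0, 21.6, 27.1 and 21.0 on the WB arrays. The groups did not overlap, and the difference of 0.66 (SE 0.20, 95% interval 0.25 to 1.06) narrowly missed the threshold (adjusted p = 0.058, limma). It was called under 6 other settings and with either of 2 other arrays left out, Nfkb1-/- HU replicate 1 (adjusted p = 0.047) or Bcl3-/- HU replicate 4 (adjusted p = 0.0069).

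In the knockouts Ddit3 overlapped between HU and WB arrays. It had 19.1, 27.7, 31.6 and 25.2 on the HU arrays of Nfkb1-/- muscle, against 20.3, 23.4, 21.6 and 29.7 on the WB arrays, a difference of 0.12 (95% interval −0.29 to 0.52). In Bcl3-/- muscle it had 201, 176, 170 and 405 on the HU arrays, against 257, 228, 224 and 216 on the WB arrays, a difference of −0.06 (95% interval −0.46 to 0.35). Replicate 4 was above every WB array and the other HU arrays below every one. The response minus that of wild type muscle was −0.54 in Nfkb1-/- muscle (SE 0.28, 95% interval −1.11 to 0.03, adjusted p = 0.44) and −0.71 in Bcl3-/- muscle (SE 0.28, 95% interval −1.28 to −0.14, adjusted p = 0.24, limma). Without Bcl3-/- HU replicate 4 the second of these was called lower (adjusted p = 0.018). On that same array Chac1 and Ppp1r15a were the lowest of the 4 HU arrays and Atf5 was the highest.

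**Figure D2:**
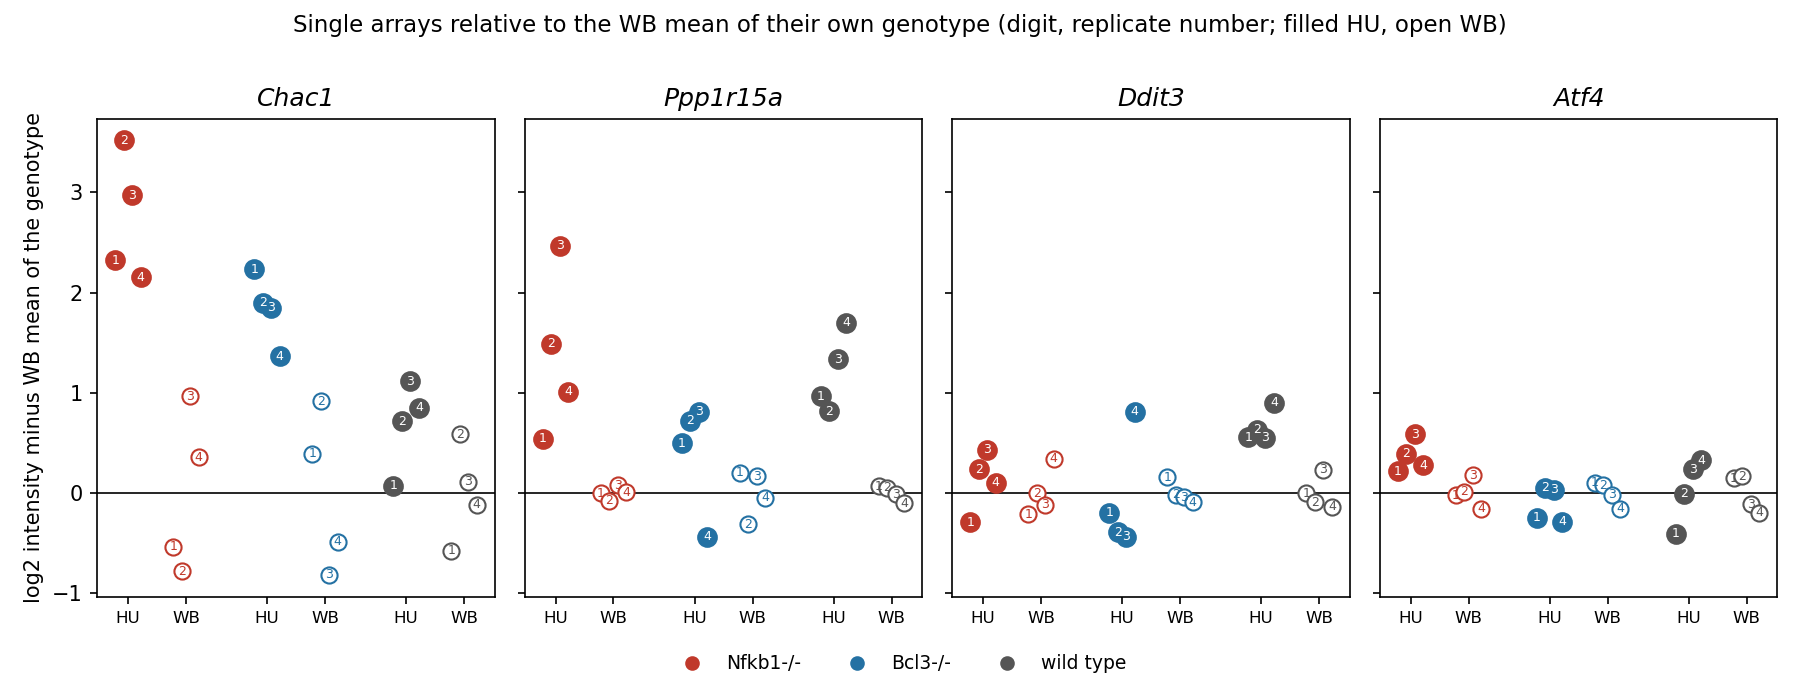
Log2 intensity of Chac1, Ppp1r15a, Ddit3 and Atf4 on single arrays minus the WB mean of the same genotype (y axis), for HU (filled) and WB (open) arrays of 3 genotypes, with the replicate number in each point. Bcl3-/- HU replicate 4 is the highest of its group in Ddit3 and the lowest in Chac1 and Ppp1r15a.

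Psat1, an enzyme of serine synthesis, had similar small differences in all genotypes at its main probe set, but not at its second. Its main probe set (1451064_a_at) differed by 0.38 in Nfkb1-/- muscle (adjusted p = 0.21), 0.50 in Bcl3-/- muscle (adjusted p = 0.086) and 0.45 in wild type muscle (adjusted p = 0.18, limma). The second probe set (1454607_s_at) had 28.3, 29.3, 29.3 and 36.3 on the HU arrays of Bcl3-/- muscle, against 18.9, 17.6, 27.5 and 21.4 on the WB arrays. HU and WB arrays did not overlap at either probe set, and at the second Psat1 rose by 0.54 (SE 0.12, adjusted p = 0.0079, limma). On the Nfkb1-/- and wild type arrays the main probe set lay between 6.30 and 15.4, below 20. The second probe set lay between 2.90 and 4.44 there, far below 20. In Bcl3-/- muscle its highest array, at 36.3, lay below all array medians of that scale (81.1 to 86.8).

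The remaining members were dim on the Nfkb1-/- and wild type arrays and none was called. Trib3, a pseudokinase that restrains the kinase Akt, differed by 0.24 in Nfkb1-/- muscle (95% interval 0.01 to 0.47, adjusted p = 0.18), 0.03 in Bcl3-/- muscle and −0.06 in wild type muscle. Asns, which makes asparagine from aspartate, differed by 0.10, −0.09 and 0.07 in the same order, all with intervals that include 0. Sesn2, a leucine sensor that holds back mTORC1, differed by 0.06, −0.14 and −0.03. In WB muscle Asns averaged 12.9 ± 2.03 in Nfkb1-/- and 18.5 ± 5.05 in wild type mice (SD, n = 4 each), a difference of −0.49 (SE 0.15, adjusted p = 0.16, limma), both below 20. No member was called between WB Nfkb1-/- and wild type muscle (0 of 8 in limma, 1 at an unadjusted p under 0.05, where 0.902% of all probe sets were called).

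**Figure D3:**
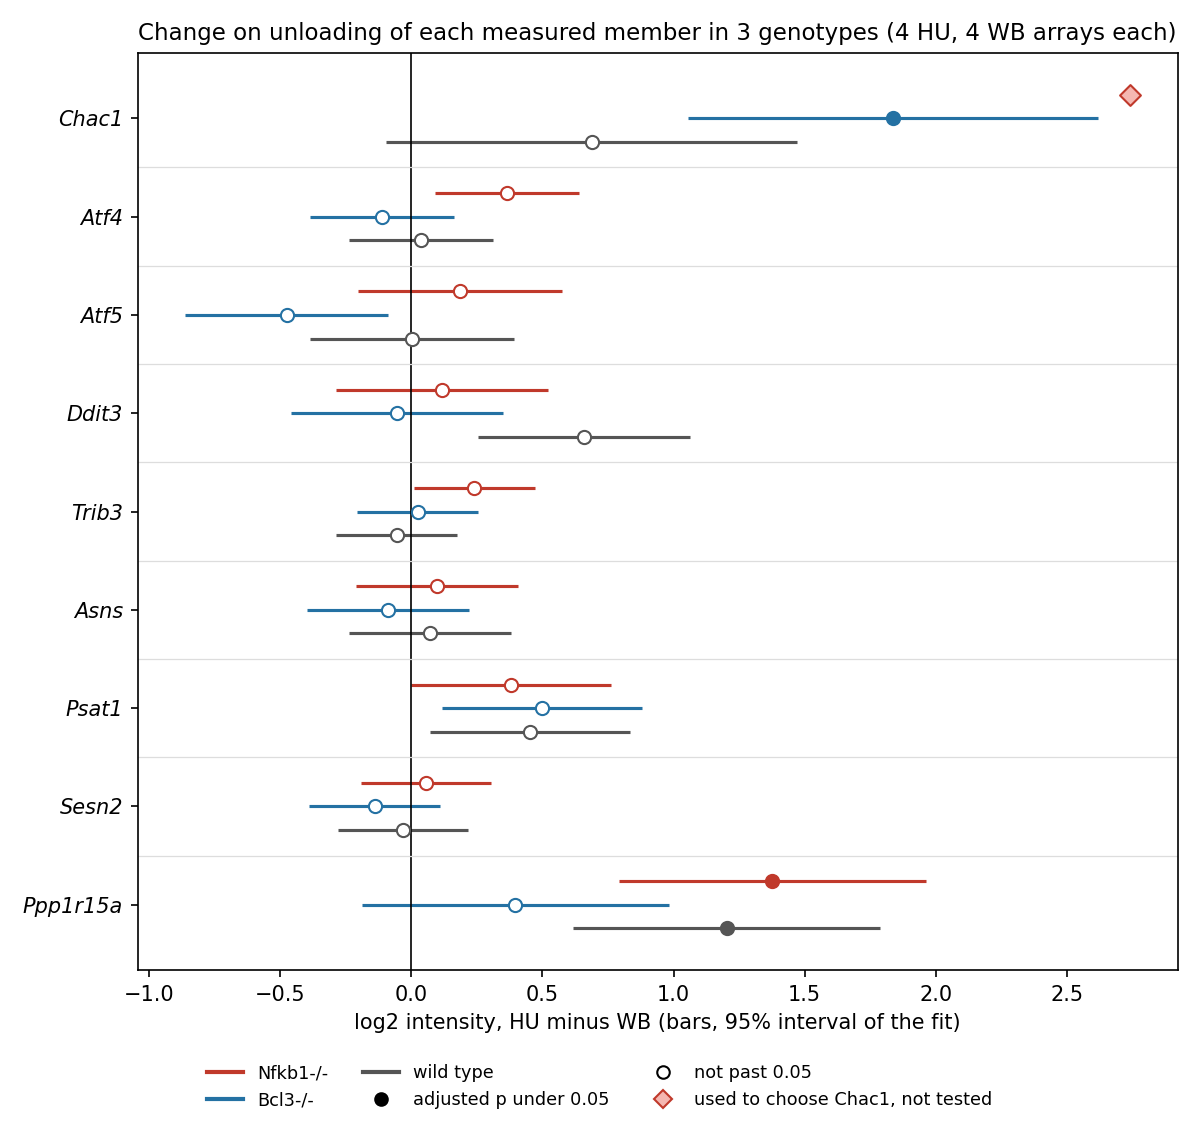
Difference in log2 intensity, HU minus WB (x axis), with the 95% interval of the fit, for each measured member in Nfkb1-/-, Bcl3-/- and wild type muscle; filled points passed an adjusted p of 0.05, and the diamond of Chac1 was not tested. Filled points are Chac1 in Bcl3-/- muscle at 1.84 and Ppp1r15a in Nfkb1-/- and wild type muscle at 1.38 and 1.20.

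Differences between genotypes in the response to unloading were not called for any tested member, 0 of 8 for Nfkb1-/- minus wild type, where 0.176% of all probe sets were called (0.057% higher), and 0 of 9 for Bcl3-/- minus wild type, where 1.07% were (0.803% higher, limma). At an unadjusted p under 0.05 the counts were 0 and 2, the 2 being Chac1 and Ddit3. In the first comparison the members ranged between −0.54 (Ddit3) and 0.33 (Atf4), and in the second between −0.81 (Ppp1r15a) and 1.15 (Chac1). All HU arrays lay above all WB arrays in 3 of 8 members in Nfkb1-/- muscle (Ppp1r15a, Atf4 and Psat1), where this held for 7.71% of all probe sets. Psat1 was dim there, with its lowest HU array at 9.22 and its highest WB array at 9.09. It passed the filter only because of the Bcl3-/- arrays. All HU arrays were above all WB arrays for 2 of 9 members in Bcl3-/- muscle (Chac1 and Psat1), against 11.4% of all probe sets, and for 2 of 9 in wild type muscle (Ppp1r15a and Ddit3), against 5.86% of all probe sets, where 10.7% did not overlap in either direction.

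The 5 genes most like Chac1 over the 24 arrays, each value taken relative to the WB mean of its genotype, were Inmt, Pfkfb3, Lcn2, Fbxo32 and Klf10. Their root mean square distance to Chac1 was 0.50, 0.61, 0.67, 0.75 and 0.76 on the log2 scale, and a gene with no change on any array would lie at 1.47. None of them belongs to the lists of the Atf4 pathway. The distance includes the Nfkb1-/- arrays that chose Chac1 and depends on the size of the change. Genes with a smaller change there could not come close, so the absence of listed genes decides nothing. Inmt differed by 2.22 in Nfkb1-/- muscle, 1.69 in Bcl3-/- muscle and 0.23 in wild type muscle, and Pfkfb3, which controls glycolysis, by 1.81, 2.08 and 0.83.

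Upstream of Atf4 stand the eIF2 kinases, eIF2 and its exchange factor eIF2B. Of 14 genes measured, 2 were called higher and 1 lower in Nfkb1-/- muscle (against 4.79% and 6.59% of all probe sets), 3 higher in Bcl3-/- muscle (against 7.59% of all) and 0 in wild type muscle, where the largest difference was that of the kinase gene Eif2ak3 at 0.27 (adjusted p = 0.12, limma). Eif2s2, a subunit of eIF2, rose by 0.26 in Nfkb1-/- muscle (SE 0.08, adjusted p = 0.041) and by 0.34 in Bcl3-/- muscle (SE 0.08, adjusted p = 0.012). Ppp1r15b, the constitutive counterpart of Ppp1r15a, rose by 0.32 in Nfkb1-/- muscle, while the RNA-sensing kinase gene Eif2ak2 fell by 0.33 there, with 10.1 ± 0.82 in HU and 12.8 ± 1.37 in WB muscle (SD, n = 4 each), both below 20. Eif2b5 and Eif2b2 rose by 0.33 and 0.35 in Bcl3-/- muscle. With 1 array left out the count higher was 0 to 3 in Nfkb1-/- muscle and 1 to 3 in Bcl3-/- muscle.

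Of 13 bZIP partners of Atf4, 1 was called higher in Nfkb1-/- muscle (against 4.79% of all probe sets), Nfe2l2, the regulator of antioxidant genes, which rose by 0.45 (SE 0.12, adjusted p = 0.021, limma). Of the 13, 8 had an unadjusted p under 0.05 there, with a median of 0.27, against 2 in Bcl3-/- and 2 in wild type muscle. The share of all probe sets at that unadjusted cutoff is not given here. At an adjusted p under 0.05 (limma), 11.4%, 10.4% and 3.97% of all were called in either direction in Nfkb1-/-, Bcl3-/- and wild type muscle. With array weights 5 of the 13 were called higher in Nfkb1-/- muscle, where 1963 of 19294 probe sets were. Jdp2, a repressor of AP-1, was the gene called in the other genotypes, where it fell by 0.49 in Bcl3-/- muscle (adjusted p = 0.0081) and by 0.60 in wild type muscle (adjusted p = 0.0038). Of all probe sets 2.81% and 1.66% were called lower in these genotypes. The Nfe2l2 call was lost without Nfkb1-/- HU replicate 2 or 3 or WB replicate 1 or 4, since the list then held 0 genes called higher.

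Among the enzymes that supply amino acids and one-carbon units, 17 were measured, and calls ran in both directions in Nfkb1-/- muscle, 3 higher and 2 lower (against 4.79% and 6.59% of all probe sets). Cth, which makes cysteine, averaged 6.69 ± 1.87 in HU and 4.06 ± 0.09 in WB muscle (SD, n = 4 each), both below the intensity of 20 used as the filter, and rose by 0.67 (SE 0.17, adjusted p = 0.0095). The transaminase gene Gpt fell by 0.51 (SE 0.11, adjusted p = 0.0029) and the folate enzyme gene Mthfd1 by 0.29 (SE 0.07, adjusted p = 0.0094, limma). In Bcl3-/- muscle 1 was called higher, the mitochondrial transaminase gene Gpt2, which rose by 0.63 (SE 0.15, adjusted p = 0.0089), and 0 were lower (against 7.59% and 2.81% of all). Wild type muscle had 0 calls, and there Bcat2, which starts the breakdown of branched-chain amino acids, had the largest difference at 0.96 (adjusted p = 0.058). Without Nfkb1-/- HU replicate 3 or WB replicate 4 the count higher in Nfkb1-/- muscle was 1.

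Among the amino acid transporters 1 gene, Slc7a6, was called in the difference of both knockout responses from that of wild type muscle. Of 14 transporters measured, 2 were called higher in Nfkb1-/- muscle (against 4.79% of all probe sets), both carriers of cationic amino acids. Slc7a6 averaged 30.9 ± 2.57 in HU and 20.5 ± 1.89 in WB muscle (SD, n = 4 each) and rose by 0.59 (SE 0.09, adjusted p = 0.00035, limma), and Slc7a2 rose by 0.48 (adjusted p = 0.0087). Both also rose in Bcl3-/- muscle, Slc7a2 by 0.64 (adjusted p = 0.0015) and Slc7a6 by 0.49 (adjusted p = 0.0025). Slc7a8 fell by 0.64 there (adjusted p = 0.012), 1 of 3 transporters called lower (against 2.81% of all probe sets), and the count lower was 1 without Bcl3-/- HU replicate 1. Another of the 3, named after its value was seen, was the glutamine carrier Slc38a2, a known Atf4 target, which fell by 0.71 (adjusted p = 0.027). Wild type muscle had 0 calls. The response of Slc7a6 minus that of wild type muscle was 0.65 in Nfkb1-/- muscle (SE 0.13, adjusted p = 0.037) and 0.54 in Bcl3-/- muscle (SE 0.13, adjusted p = 0.045, limma), and both of these share the wild type arrays. Both lie near the threshold, and their dependence on single arrays is not given here. The Bcl3-/- value sets responses from 2 intensity scales against each other.

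Cytosolic aminoacyl-tRNA synthetases, which charge tRNAs with amino acids, were called in Bcl3-/- muscle. There 7 of 17 were higher and 0 lower, with a median of 0.22, where 7.59% of all probe sets were called higher and their median was 0.02. Kars1 averaged 981 ± 37.1 in HU and 686 ± 54.8 in WB muscle (SD, n = 4 each) and rose by 0.52 (SE 0.10, adjusted p = 0.0024, limma), Tars1 rose by 0.53 (adjusted p = 0.0035) and Farsb by 0.34 (adjusted p = 0.012). The other 4, with adjusted p values of 0.022 to 0.046, changed by 0.27 to 0.40. In Nfkb1-/- and wild type muscle 0 of 17 were called, where 1 and 4 had an unadjusted p under 0.05 and the medians were 0.05 and 0.07, and 0 were called in the difference between the Bcl3-/- and the wild type response, where 3 had an unadjusted p under 0.05. The count of 7 was 3 without Bcl3-/- HU replicate 1, 2 or 3 or WB replicate 2, 4 without WB replicate 1 or 4, 3 in a fit of the Bcl3-/- groups alone and 4 after centring on array medians.

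Of 19 other Atf4 target genes, 4 were called higher and 1 lower in Nfkb1-/- muscle, 3 higher and 1 lower in Bcl3-/- muscle and 0 in wild type muscle. Of all probe sets 4.79% were called higher and 6.59% lower in Nfkb1-/- muscle, and 7.59% and 2.81% in Bcl3-/- muscle. Sesn1, a paralog of Sesn2, averaged 108 ± 46.6 in HU and 49.2 ± 6.14 in WB Nfkb1-/- muscle (SD, n = 4 each) and rose by 1.03 (SE 0.19, adjusted p = 0.0013, limma). Eif4ebp1, a brake on translation, rose by 0.76 in Nfkb1-/- muscle (adjusted p = 0.018) and by 0.96 in Bcl3-/- muscle (adjusted p = 0.0051, limma). The paper lists the same probe set from these arrays as a target of p50 and Bcl-3, upregulated in wild type but not in knockout muscle. Its qPCR of this gene found no rise or a smaller rise in the knockouts. The reason for the difference was not tested. Map1lc3b, a gene of autophagosomes, rose by 0.32 in Nfkb1-/- muscle (adjusted p = 0.024). Vldlr, a lipoprotein receptor gene, rose in Bcl3-/- muscle by 0.67 (adjusted p = 0.0030) and Nupr1, a stress-induced chromatin protein gene, fell by 0.70 (adjusted p = 0.0061). The response of Vldlr minus that of wild type muscle was 0.93 (SE 0.19, adjusted p = 0.017, limma). Among wild type differences that of Gadd45a, a growth arrest gene, was the largest at 1.47 (SE 0.45, adjusted p = 0.066), with HU arrays at 125 ± 173 and WB arrays at 25.0 ± 4.61 (SD, n = 4 each). The count higher in Nfkb1-/- muscle fell to 2 without HU replicate 2 or 3 or WB replicate 1, and to 1 without WB replicate 4.

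Of 23 endoplasmic reticulum chaperones and unfolded protein response genes, 0 were called higher in any genotype, 2 lower in Nfkb1-/- muscle (against 6.59% of all probe sets), 1 lower in Bcl3-/- muscle (against 2.81% of all) and 0 in wild type muscle, counts near the shares over all probe sets. Sec61b, part of the protein translocation channel, fell by 0.69 (SE 0.13, adjusted p = 0.0016) and the disulfide isomerase gene Pdia3 by 0.53 (adjusted p = 0.0059) in Nfkb1-/- muscle, and Sdf2l1 fell by 0.52 in Bcl3-/- muscle (adjusted p = 0.031, limma). The wild type gene with the largest difference, Hyou1, stood at −0.41 (adjusted p = 0.13). Of 12 genes of mitochondrial stress, 1 was higher and 3 were lower in Nfkb1-/- muscle (against 4.79% and 6.59% of all probe sets). There the protease genes Pmpcb and Oma1 fell by 0.53 and 0.44 and the chaperonin gene Hspe1 fell by 0.41. Of the 12, 0 were called in Bcl3-/- and in wild type muscle, where 2 and 1 had an unadjusted p under 0.05.

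Glutathione genes stand closest to the activity of Chac1. Of 12, 2 were higher and 1 lower in Nfkb1-/- muscle, 0 higher and 1 lower in Bcl3-/- muscle, and 1 higher and 1 lower in wild type muscle. The shares over all probe sets were 4.79% and 6.59%, 7.59% and 2.81%, and 2.31% and 1.66% in the same order. Chac2, the paralog of Chac1 with lower activity, averaged 60.2 ± 9.79 in HU and 93.4 ± 8.25 in WB Nfkb1-/- muscle (SD, n = 4 each) and fell by 0.64 (SE 0.11, adjusted p = 0.00063, limma). It fell by 0.43 in wild type muscle as well (adjusted p = 0.024), a call lost without wild type HU replicate 3 or WB replicate 1 or 2. Gclc, the rate-limiting subunit gene of glutathione synthesis, rose by 0.57 in Nfkb1-/- muscle (adjusted p = 0.011). Gpx4, a lipid peroxide reductase gene, rose by 0.36 in Nfkb1-/- muscle (adjusted p = 0.011) and by 0.45 in wild type muscle (adjusted p = 0.0065). Oplah, which returns 5-oxoproline to glutamate, fell in Bcl3-/- muscle by 0.44 (adjusted p = 0.044), and the count lower was 0 to 2 with 1 array left out. Without Nfkb1-/- HU replicate 2 the count higher in Nfkb1-/- muscle was 0, and without HU replicate 3 it was 1.

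The linked lists with 0 calls in limma in wild type muscle held genes with an unadjusted p under 0.05, namely 4 of 14 eIF2 genes, 5 of 17 synthesis enzymes, 2 of 14 transporters, 4 of 17 tRNA synthetases, 3 of 19 other targets and 6 of 23 endoplasmic reticulum genes. The share of all probe sets at that unadjusted cutoff is not given here, so these counts do not show a response of the lists. At an adjusted p under 0.05 (limma) 3.97% of all were called in wild type muscle. In wild type muscle the methods' t-test called 0 of 19294 probe sets, and 191 higher and 122 lower of the 1986 that passed the methods' own filter, which keeps probe sets by their range over the same 8 arrays.

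**Figure D4:**
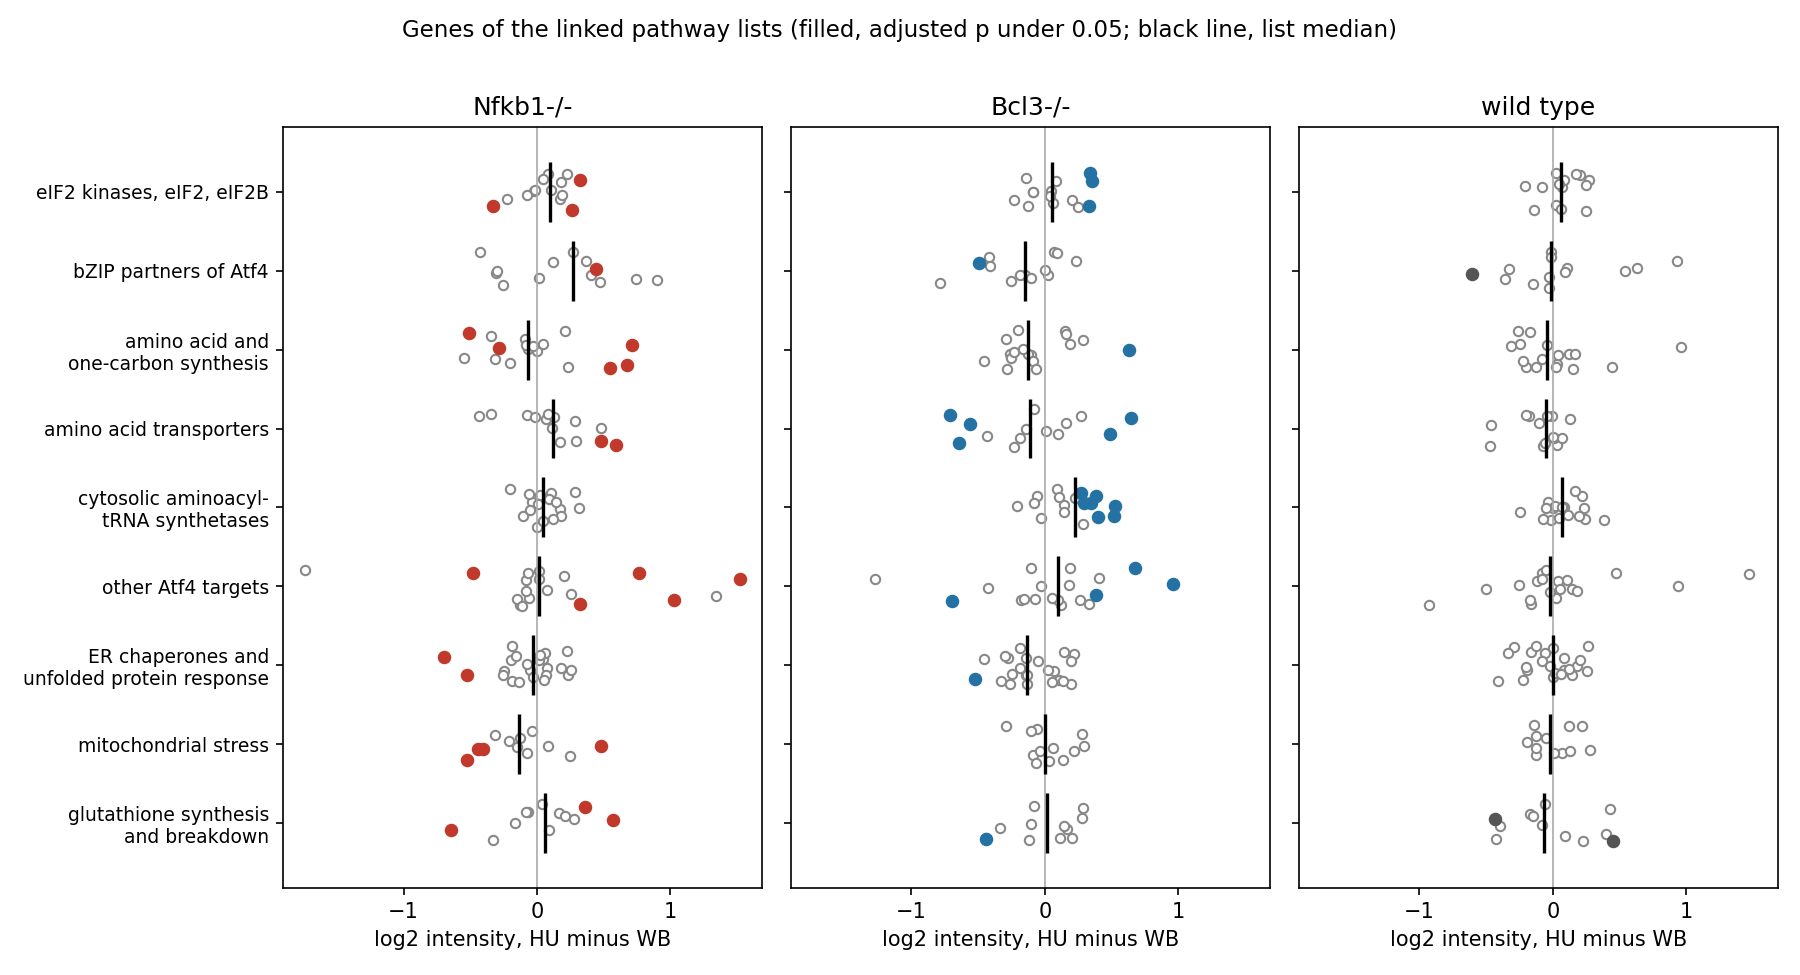
Difference in log2 intensity, HU minus WB (x axis), of each gene of 9 lists of linked pathways in Nfkb1-/-, Bcl3-/- and wild type muscle; filled points passed an adjusted p of 0.05 and black lines are list medians. The tRNA synthetases show 7 filled points in Bcl3-/- muscle and 0 in Nfkb1-/- and wild type muscle.

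Markers of other cells moved with unloading beside these genes. For comparison, 4.79% of all probe sets were called higher and 6.59% lower in Nfkb1-/- muscle. The shares were 7.59% and 2.81% in Bcl3-/- muscle, and 2.31% and 1.66% in wild type muscle. Of 10 fibroblast and tendon markers, 5 were called lower in Nfkb1-/- muscle, 5 in Bcl3-/- muscle and 2 in wild type muscle, and their summed intensity ranged from 3673 to 6675 on HU against 7892 to 9269 on WB arrays in Nfkb1-/- muscle, from 25904 to 37680 against 38669 to 50914 in Bcl3-/- muscle, and from 6129 to 6728 against 8213 to 9764 in wild type muscle. Of 7 neutrophil markers, 2 were called higher in each knockout and 0 in wild type muscle (2 at an unadjusted p under 0.05), with sums of 68.7 to 151 on HU against 40.7 to 54.3 on WB arrays in Nfkb1-/- muscle and 443 to 941 against 293 to 345 in Bcl3-/- muscle. The wild type sums were 42.8 to 120 on HU and 38.0 to 45.1 on WB arrays. Of the 7 neutrophil markers, 2 had a median above 20 in HU Nfkb1-/- muscle, S100a8 and S100a9, and 0 in HU wild type muscle. In both knockouts S100a8 and S100a9 were higher on all HU than on all WB arrays. Ngp, Camp, Ltf, Csf3r and Mmp9 overlapped between HU and WB arrays in both. In Bcl3-/- muscle S100a8 read 122 to 374 on HU and 27.1 to 44.9 on WB arrays, and Mmp9 76.8 to 88.9 and 78.9 to 120. Of 12 macrophage markers, 1 was called higher in Nfkb1-/- and in wild type muscle and 0 in Bcl3-/- muscle. At an unadjusted p under 0.05 the counts were 2 in Nfkb1-/-, 0 in Bcl3-/- and 6 in wild type muscle, with medians of 0.08, −0.17 and 0.36, and 5 for the response of Bcl3-/- minus that of wild type muscle, with a median of −0.54. Of 6 adipocyte markers, 3 were called higher in Nfkb1-/- muscle (median 0.42), 1 lower in Bcl3-/- muscle and 1 lower in wild type muscle. Their summed intensity was 2312 to 3172 on HU and 2644 to 2892 on WB arrays in Nfkb1-/- muscle, 9887 to 11152 and 12210 to 13571 in Bcl3-/- muscle, and 1810 to 2468 and 2453 to 2779 in wild type muscle. For the response of Nfkb1-/- minus that of wild type muscle 0 of the 6 were called (limma), and 3 had an unadjusted p under 0.05. Among 8 endothelial, 8 satellite cell and 5 lymphocyte markers there were 2 calls, 1 endothelial lower in Nfkb1-/- muscle and 1 satellite cell higher in Bcl3-/- muscle. The part of these cells in the differences of Chac1 and the other members was not tested.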

How the data were processed

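The members and the linked gene lists were chosen with earlier results of these data known. Per the paper's methods, the authors labelled total RNA by 2 cycles of cDNA synthesis, hybridised 1 array per mouse and summarised the probes by RMA with quantile normalization. The deposited intensity values are linear and lie on 2 scales, 1 for the 16 Nfkb1-/- and wild type arrays and 1 for the 8 Bcl3-/- arrays. The submitters' processing notes name GCOS and RMA, and no genome build enters these values. Symbols came from the platform annotation updated through RefSeq: of 22626 probe sets other than controls, 20380 had 1 gene, 691 several and 1555 were not listed. Values were taken as log2 and fitted in limma 3.58.1 (R 4.3.3) with 1 mean per group over all 24 arrays, 18 residual and 5.89 prior degrees of freedom, for 19294 probe sets above 20 on at least 4 arrays, with Benjamini-Hochberg adjustment over all of them. A gene's main probe set has the highest mean log2 intensity. Contrasts set HU against WB muscle of 1 genotype, each knockout's response minus that of wild type, and Nfkb1-/- minus wild type in WB muscle. The Bcl3-/- minus wild type contrast sets responses from 2 intensity scales against each other. With 4 arrays per group, their number limits the precision. Counts at an unadjusted p under 0.05 are given without the share of all probe sets at that cutoff. The fit was tested on simulated data. The methods' t-test was the unequal-variance t-test on the same values, at an unadjusted p under 0.05 with a q-value of at most 0.05, or with Benjamini-Hochberg adjustment. It ran on all 19294 probe sets and, as an alternative chosen after the results were seen, on those that passed the methods' own filter over the 8 arrays of a genotype (highest over lowest of at least 1.7, their difference at least 9, the highest between 20 and 20000). The methods do not say whether variances were taken as equal. Named are all members, up to 3 called genes per linked list and genotype by adjusted p (the largest change where none was called), the 4 next to Chac1 in rank and the 5 most like it. The scales, filter, normalization, weights, offset and single arrays were varied. The comparison of Bcl3-/- with wild type levels was left out because of the scales.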

Additional observations from a re-analysis of the deposited data

Results flagged for a closer look

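In 7 of 90 sets of 4 arrays (15 probe sets in 6 groups) the highest array stood apart from the others by Dixon's criterion on linear intensities. For normally distributed values chance alone meets this criterion, at either end, in about 1 set in 20. That rate need not hold for linear intensities. The fits use log2 values, on which the same sets need not stand apart. In Bcl3-/- HU muscle replicate 4 did so for Ddit3, at 405 with the others between 170 and 201, for Atf5, at 623 with the others between 499 and 512, and for the second probe set of Psat1 (1454607_s_at), at 36.3 with the others between 28.3 and 29.3. In Bcl3-/- WB muscle replicate 4 did so for the second probe set of Trib3 (1456225_x_at), at 39.9 with the others between 28.5 and 29.7. In wild type muscle Asns stood apart in HU replicate 4, at 24.9 with the others between 16.7 and 18.0, and in WB replicate 2, at 26.0 with the others between 15.1 and 16.7. A dim probe set of Atf4 (1439258_at) stood apart in wild type WB replicate 4, at 23.1 with the others between 15.2 and 16.2.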

How the results depend on the processing

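The count of called members rested on single genes near the threshold. In Nfkb1-/- muscle it was 1 and became 2 in a fit of only the groups compared, with array weights and after quantile normalization within each array set (Atf4 added), 0 by the methods' t-test over all probe sets with q-values or Benjamini-Hochberg adjustment, and 1 to 2 with 1 array left out. In Bcl3-/- muscle it was 1 and became 2 with array weights, with log2 of the intensity plus 16 and when any probe set of a gene counted, 0 by both forms of the methods' t-test, and 1 to 2 with 1 array left out (Psat1 added without WB replicate 3, Atf5 without WB replicate 4). In wild type muscle it was 1 and became 2 with the filter within each array set, in a fit of only the groups compared, with array weights, after quantile normalization and after centring (Ddit3 added), 0 with log2 of the intensity plus 16 and by both forms of the methods' t-test, and 0 to 2 with 1 array left out. Bcl3-/- minus wild type responses had 0 to 1 members called with 1 array left out, and WB Nfkb1-/- against wild type muscle had 1 (Asns) with array weights. The cause was not tested.

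Over all probe sets the methods' t-test called 256 higher and 599 lower in Nfkb1-/- muscle, 231 and 56 in Bcl3-/- muscle and 0 and 0 in wild type muscle with q-values, and 69 and 238, 68 and 16, and 0 and 0 with Benjamini-Hochberg adjustment. After the methods' own filter, an alternative chosen after the results were seen, it called 470 and 583 of 2192, 332 and 121 of 4401, and 191 and 122 of 1986 with q-values. The member counts were then 1 in Nfkb1-/- muscle (Ppp1r15a), 0 in Bcl3-/- muscle and 2 in wild type muscle (Ppp1r15a and Ddit3). This filter tests fewer probe sets and keeps them by their range over the arrays compared.

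Small differences turned sign without being called. Trib3 in Bcl3-/- muscle was −0.015 after centring and −0.044 to 0.066 with 1 array left out, and Ddit3 there −0.34 to 0.073. In wild type muscle Atf4 was −0.021 and Atf5 −0.028 after quantile normalization, while with array weights Trib3 was 0.061, Asns −0.0023 and Sesn2 0.083. With 1 array left out these were −0.061 to 0.18 (Atf4), −0.10 to 0.14 (Atf5), −0.12 to 0.014 (Trib3), −0.059 to 0.25 (Asns) and −0.083 to 0.069 (Sesn2). The response of Ppp1r15a in Nfkb1-/- minus wild type muscle was −0.19 to 0.45 with 1 array left out, the lowest without Nfkb1-/- HU replicate 3.

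Replicate numbers did not pair the arrays, since deviations of arrays with the same number correlated at −0.17 to 0.22. With the replicate block the member counts stayed at 1, 1 and 1 in Nfkb1-/-, Bcl3-/- and wild type muscle and at 0 in the other comparisons. Under the filter within each array set Trib3, Asns, Psat1 and Sesn2 gave no value in Nfkb1-/- and wild type muscle, and the dim signal of these genes limits what their differences show.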
